A study of Mus musculus with 6 samples.

Results

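The 8 CXC chemokine genes Cxcl1, Cxcl2, Cxcl5, Cxcl9, Cxcl10, Cxcl12, Cxcl14 and Cxcl16 and the receptor gene Ackr3 were followed in mouse lens capsules after cataract surgery. These 9 genes were chosen by name as members of one signalling family, with earlier results of these data known. They were matched by symbol to the Ensembl identifiers of the count files, which list 56940 genes. All 9 were found, and 7 of them had enough reads to be among the 15407 genes tested. RNA sequencing was done on lens capsules with the lens epithelial cells that stay attached to them when the fiber cell mass is taken out. The labels describe all 6 libraries as wildtype C57BL/6 mice with cataract surgery as the treatment, taken at 0 h (3 libraries) or at 72 h (3 libraries), and no age is stated. Each library pooled 5 capsules. The second eye of a mouse had its operation 72 h after the first, just before both capsules were taken, so one mouse could give a capsule to each group. The library descriptions also carry the tag RUNX_Cre_N, which the sources used here do not explain.

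CXC chemokines are small secreted proteins that guide migrating leukocytes through G protein-coupled receptors and are held on matrix and cell surfaces by glycosaminoglycans. Those with a glutamate-leucine-arginine sequence before the cysteine pair (Cxcl1, Cxcl2 and Cxcl5 here) act on Cxcr2 and draw neutrophils, Cxcl9 and Cxcl10 are induced by interferon and act on Cxcr3, Cxcl12 acts on Cxcr4, and Cxcl16 is a membrane-bound ligand of Cxcr6. Ackr3 is an atypical receptor that binds Cxcl12 and removes it from the extracellular space without signalling through G proteins. Residual lens epithelial cells after cataract surgery are studied as the source of posterior capsule opacification, and inflammation is part of the response of the eye to this surgery.

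Cxcl1, Cxcl2 and Cxcl5 belong to a run of CXC genes on mouse chromosome 5. In the RefSeq annotation of GRCm38 the protein-coding genes between Cxcl5 and Cxcl2 stand in the order Cxcl5, Ppbp, Pf4, Cxcl3, Cxcl15, Cxcl1 and Cxcl2, all 7 of them CXC genes. Cxcl9 and Cxcl10 lie elsewhere on the same chromosome with the gene Art3 between them. RefSeq promoter windows (GRCm38.p6) of 300 bases, from 250 before to 50 after the annotated start, were at hand for 7 of the 9 genes, Cxcl5 and Cxcl16 being the others. The windows of Cxcl1, Cxcl2 and Cxcl3, 3 neighbours whose reads were higher at 72 h, are shown beside that of Cxcl10, which stayed near 0. Capitals mark GGGNNNTTC, an NF-kappaB type motif, on either strand and, in Cxcl10 alone among the 4, GAAANNGAA, an interferon response type motif. The upstream bases run to the base before the start, at chr5:90891125-90891244 (plus strand) for Cxcl1, chr5:90903779-90903898 (plus) for Cxcl2, chr5:90785981-90786100 (plus) for Cxcl3 and chr5:92348890-92349109 (minus) for Cxcl10.
Cxcl1: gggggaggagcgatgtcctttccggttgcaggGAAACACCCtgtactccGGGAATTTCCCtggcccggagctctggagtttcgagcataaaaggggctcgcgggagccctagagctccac
Cxcl2: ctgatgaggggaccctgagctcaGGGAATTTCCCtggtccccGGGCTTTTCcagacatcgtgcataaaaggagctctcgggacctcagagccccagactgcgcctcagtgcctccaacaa
Cxcl3: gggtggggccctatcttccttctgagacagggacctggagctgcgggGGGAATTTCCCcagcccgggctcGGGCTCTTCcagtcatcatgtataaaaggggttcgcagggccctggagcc
Cxcl10: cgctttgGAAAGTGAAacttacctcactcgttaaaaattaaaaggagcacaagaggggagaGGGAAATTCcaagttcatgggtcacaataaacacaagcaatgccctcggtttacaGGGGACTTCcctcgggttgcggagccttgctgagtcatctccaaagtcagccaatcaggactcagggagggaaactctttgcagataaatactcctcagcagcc

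The stretch GGGAATTTCCC was the longest run of bases common to the 250 upstream bases of Cxcl1, Cxcl2 and Cxcl3, at 11 bases. It reads as 2 overlapping matches to the NF-kappaB type motif, one on each strand, and begins at position -71 of Cxcl1, -97 of Cxcl2 and -73 of Cxcl3, counted from the annotated start. The motif occurred in 13.96% of all 32851 promoter windows and the whole stretch, which was searched because these 3 genes share it, in 14 windows or 0.0426%. Besides the 4 windows shown, Cxcl9 held the NF-kappaB type motif. The windows of Pf4, Ppbp and Cxcl15, in the same run on chromosome 5, held no match to it. Of these, Pf4 was also called higher at 72 h. A link between this motif and the reads was not tested. The interferon type motif, in 8.56% of all windows, was found in Cxcl9, Cxcl10 and Cxcl14. Among the 8 windows mapped, the AP-1 type motif TGANTCA (in 7.81% of all windows) was found in Cxcl9 and Cxcl10. The STAT type motif TTCNNNGAA (8.30%) was found in Cxcl14, and the TATA box letters TATAAA (13.6%) in Cxcl3, Cxcl9 and Ackr3. The Cxcl12 window held none of the 5 motifs, which speaks only of these letters in this window.

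**Figure D1:**
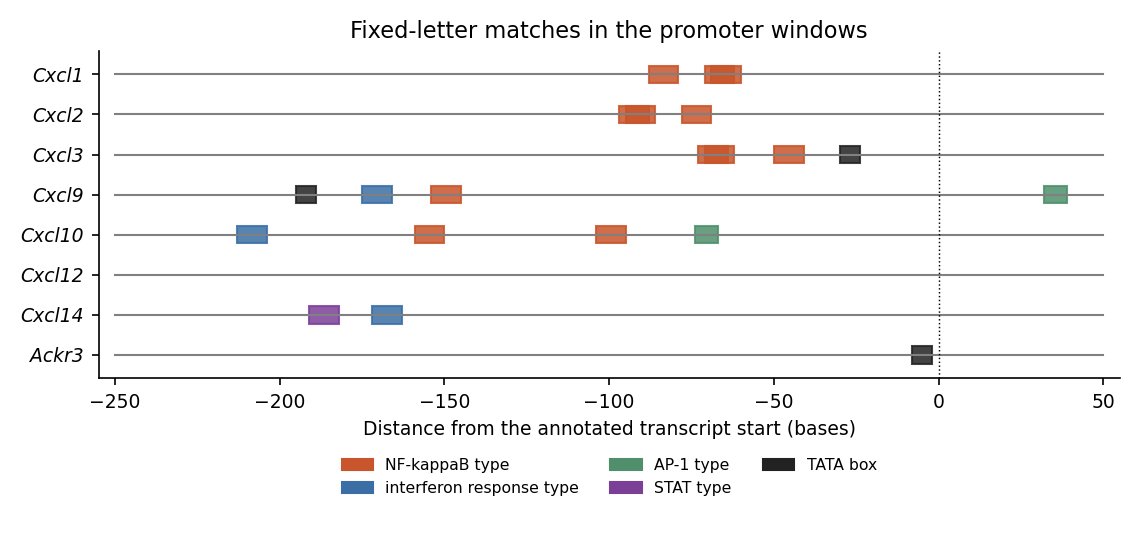
Positions of 5 fixed-letter motifs in the promoter windows of 7 of the genes and of Cxcl3, against the distance from the annotated start in bases; coloured boxes are matches on either strand. The NF-kappaB type boxes lie between positions -97 and -42 in Cxcl1, Cxcl2 and Cxcl3, and farther upstream, at positions -159 and -104, in Cxcl10.

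Reads assigned to genes ranged from 11338820 to 12432688 per library at 0 h and from 8453450 to 8945397 at 72 h, and levels are given in CPM, read counts scaled to a common library size after TMM normalization. Lens epithelial markers were present in both groups, their 6 genes summing to 2665 to 2718 CPM at 0 h and 1264 to 1468 CPM at 72 h, and 4 of the 6 fell. Lens fiber markers summed to 110099.6 to 115931 CPM at 0 h and 11508 to 20882 CPM at 72 h, and all 5 tested fell, as did all 5 photoreceptor markers (589 to 1427 and 49.7 to 120 CPM). Leukocyte markers were higher at 72 h, where 21.0% of all tested genes were called higher and 17.5% lower. The 6 tested markers of dendritic and antigen presenting cells all rose (summed list 20.1 to 28.3 and 75.9 to 155 CPM). Summed macrophage and monocyte markers (12 genes) were at 32.3 to 49.8 CPM at 0 h and 148 to 355 CPM at 72 h, with 8 of 11 tested members higher, and summed neutrophil markers (10 genes) at 0.931 to 1.58 and 20.7 to 44.5 CPM. Of the neutrophil markers only Csf3r and Cxcr2 were tested, both higher, and Mpo, Elane, Ly6g, Ngp and Camp had 0 counts in every library. Reads in lines that name no gene made up 41.9% to 45.2% at 0 h and 48.0% to 51.7% at 72 h. The part of these cells and of this read share in the chemokine results was not tested, and in bulk RNA more cells of a type and more RNA per cell cannot be told apart. One library stood apart, 72 h replicate 3, whose 4 surface epithelium keratin markers summed to 3479 CPM against 4.75 to 72.9 CPM in the other 72 h libraries and 15.8 to 40.3 CPM at 0 h.

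Of the 9 genes, Cxcl1, Cxcl2, Cxcl5, Cxcl12 and Cxcl16 passed edgeR's quasi-likelihood test as higher at 72 h (adjusted p under 0.05 over all tested genes), Cxcl14 and Ackr3 were tested and not called, and Cxcl9 and Cxcl10 had too few reads for the test. Across all tested genes 21.0% were called higher and 17.5% lower. The members, and the gene lists used below, were chosen with earlier results known, so shares of called genes are descriptions only. No member was called lower, at an unadjusted p under 0.05 as well (0 of 7 tested), and 0 were called lower with DESeq2 or limma voom. The 72 h libraries of the 5 called genes lay above every 0 h library, which was true of 26.5% of all tested genes. All 5 reached the count filter in every 72 h library, and only Cxcl14 and Ackr3 reached it in every 0 h library. Cxcl1, Cxcl2 and Cxcl5 reached it in no 0 h library, so that they could enter the test only by being higher at 72 h. Cxcl12 (6, 23 and 20 counts) and Cxcl16 (5, 19 and 19) fell short of it in 0 h replicate 1, and needed at least 1 72 h library to enter.

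**Figure D2:**
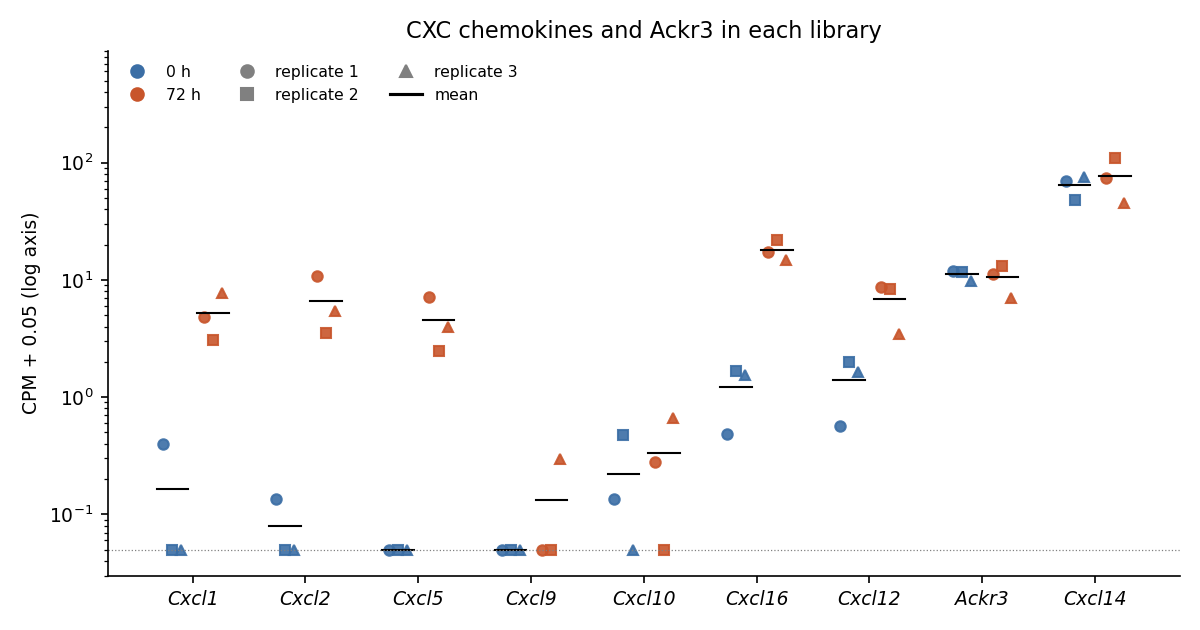
Level of each gene in every library, as CPM plus 0.05 on a log axis; blue points are 0 h, orange points 72 h, marker shapes the replicate number, black bars the mean of 3 libraries, and the dotted line a count of 0. Cxcl1, Cxcl2, Cxcl5, Cxcl12 and Cxcl16 have no overlap between the groups, and Ackr3 and Cxcl14 do.

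The Cxcr2 ligands went from almost no reads to a low but clear level. Cxcl5 (ENSMUSG00000029371), which in mice is a neutrophil attractant made largely by epithelial cells, had 0 counts in all 3 libraries at 0 h and 61, 21 and 32 counts in 72 h replicates 1, 2 and 3. Its 72 h level was 4.47 ± 2.37 CPM (SD, n = 3). A count of 0 over the pooled 0 h libraries allows up to 0.0832 CPM, so the rise was at least 53.8-fold (adjusted p = 9.8e-04 by edgeR). Cxcl5 was highest in replicate 1 and lowest in replicate 2, and the highest 72 h library held 2.91 times the level of the lowest. The bound was 34.9-fold when 0 h replicate 3 was left out.

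Cxcl2 (ENSMUSG00000058427), the mouse chemokine also known as MIP-2, had 1, 0 and 0 counts at 0 h and 93, 30 and 44 counts at 72 h. These are 0.0865, 0 and 0 CPM against 10.8, 3.47 and 5.38 CPM. Every 72 h library was far above the single read seen at 0 h, which lay in 0 h replicate 1. The pooled counts give a ratio of 236 with a 95% counting interval of 41.8 to 9391 (adjusted p = 2.7e-04 by edgeR), and with 0 h replicate 1 left out the bound was 53.5-fold. The ratio was 153 without 0 h replicate 3. Replicate 1 was again the highest library at 72 h.

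Cxcl1 (ENSMUSG00000029380), also called KC, had 4, 0 and 0 counts at 0 h and 41, 26 and 63 counts at 72 h, that is 0.346, 0 and 0 CPM against 4.75, 3.00 and 7.70 CPM. Unlike Cxcl2 and Cxcl5 it was highest in 72 h replicate 3, and lowest, as they were, in replicate 2. Its log2 change was 5.37 ± 1.05 (SE; 95% interval 3.03 to 7.71; adjusted p = 0.0027 by edgeR). All of its 0 h reads lay in 0 h replicate 1, without which the fitted log2 change was 8.68 and the bound 41.7-fold. With 0 h replicate 3 left out the log2 change was 4.80. Transcripts of Cxcl1 shared no stretch of 50 bases with another gene in the GENCODE annotation, whereas 5.84% of the 50-base words of Cxcl2 also occur in Cxcl3, so that some reads of this pair could be dropped or split in counting.

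Their neighbours on chromosome 5 had reads at 72 h too. Cxcl3, another close relative of Cxcl1, had 1, 0 and 0 counts at 0 h and 285, 9 and 45 counts at 72 h, so that replicate 1 held 31.7 times the CPM of replicate 2. It passed the test (log2 change 8.37 ± 1.89, adjusted p = 0.015 by edgeR) but not with limma voom (adjusted p = 0.190), with no count filter (0.0725), or when 0 h replicate 1 (0.134), 2 (0.0698) or 3 (0.0746) was left out. Its pooled ratio of 480 was 115.7 without 72 h replicate 1. Pf4, platelet factor 4, which platelets store and macrophages also express, had 11, 6 and 12 counts at 0 h and 233, 138 and 77 at 72 h and had a log2 change of 4.42 ± 0.50 (adjusted p = 9.2e-05). Ppbp, the platelet basic protein gene, had 0 counts at 0 h and 54, 6 and 2 at 72 h and was not tested, and Cxcl15 had 0 counts in every library. Of the 5 platelet and megakaryocyte markers, which include Pf4 and Ppbp, Itga2b rose from 3.599 ± 1.55 to 9.16 ± 1.22 CPM (adjusted p = 0.030 by edgeR). Gp9 had 0 counts throughout and Gp1ba 0 counts at 72 h, and the list summed to 2.92 to 5.54 CPM at 0 h and 17.6 to 42.4 CPM at 72 h.

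The receptor that Cxcl1, Cxcl2 and Cxcl5 share was read at 72 h only. Cxcr2, found mainly on neutrophils, had 0 counts at 0 h and 18, 12 and 34 counts at 72 h, at least 30.2-fold higher (adjusted p = 0.0029 by edgeR); the bound was 19.6-fold with 0 h replicate 3 left out. Cxcr1 had 0 counts in every library. Cxcr2 was highest in 72 h replicate 3, as Cxcl1 was, while the summed neutrophil markers, of which it is one, were at 44.5, 20.7 and 29.8 CPM in replicates 1, 2 and 3. Cxcl2, Cxcl3 and Cxcl5 stood in the same order of libraries as that sum. Most of the sum was Csf3r, at 29.4, 17.6 and 22.7 CPM. S100a8 (31, 2 and 14 counts) and Retnlg (7, 0 and 3) stood in that order too. S100a9 (74, 13 and 7 counts) and Cxcr2 did not. With 3 libraries these orders are given as a description, and they were not tested.

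**Figure D3:**
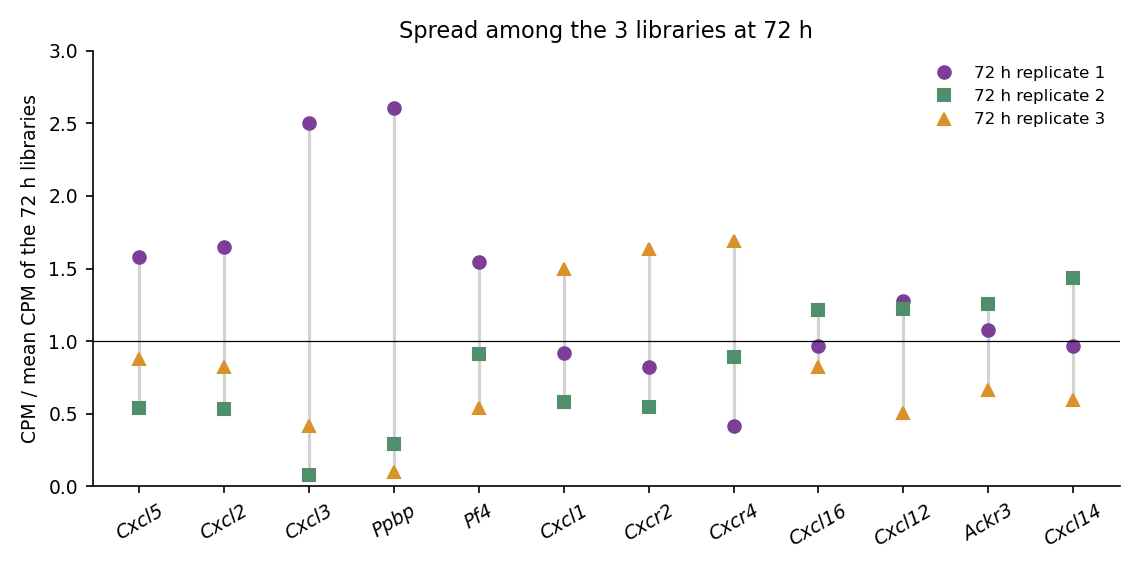
Level of 12 CXC ligand and receptor genes in each 72 h library, as CPM divided by the mean CPM of the 3 libraries; the 3 marker shapes are the replicates and the horizontal line is the mean. Replicate 1 is highest for Cxcl5, Cxcl2, Cxcl3, Ppbp and Pf4, replicate 3 for Cxcl1, Cxcr2 and Cxcr4, and Cxcl3 and Ppbp spread most.

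The interferon-inducible ligands stayed at the edge of detection. Cxcl10 (ENSMUSG00000034855) had 1, 5 and 0 counts at 0 h and 2, 0 and 5 counts at 72 h, a pooled ratio of 1.65 with a 95% counting interval of 0.475 to 5.95. Of the 50-base words of Cxcl10, 3.59% also occur in Art3, so reads could be shared between them, and Art3 had 43 counts in 72 h replicate 3. Cxcl9 (ENSMUSG00000029417) had 0 counts at 0 h and 0, 0 and 2 counts at 72 h. Leaving out 0 h replicate 2 gave a Cxcl10 ratio of 6.66, leaving out 72 h replicate 3 one of 0.695, and a change was not detectable for either gene at this depth. Their relative Cxcl11, which the annotation marks as a polymorphic pseudogene, had 0 counts in every library, and their receptor Cxcr3 had 0, 0 and 3 counts at 72 h and none at 0 h. T and NK cell markers were nearly absent as well, with 10 genes summing to 0.339 to 0.473 CPM at 0 h and 0 to 4.40 CPM at 72 h.

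Genes of interferon signalling, the known inducer of Cxcl9 and Cxcl10, were measured beside them. Of 13 such genes, 11 were called higher and none lower, with a median log2 change of 1.37 against -0.02 over all tested genes. Among all tested genes 21.0% were called higher and 17.5% lower. Jak2, a kinase of the interferon gamma receptor, rose from 32.9 ± 2.72 to 84.0 ± 14.1 CPM (log2 change 1.35 ± 0.15, adjusted p = 9.8e-05). Ifngr2, a chain of that receptor, rose by 1.44 ± 0.17 (adjusted p = 1.3e-04).

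Cxcl16 (ENSMUSG00000018920) had the smallest p of the 7 tested members. This transmembrane chemokine, which is also a scavenger receptor for oxidised lipoprotein and can be shed from the cell surface, had 5, 19 and 19 counts at 0 h and 150, 189 and 121 counts at 72 h. In CPM these were 0.432, 1.61 and 1.499 against 17.4, 21.8 and 14.8. The lowest 72 h library was well above the highest 0 h library, and the 72 h libraries differed by only 1.48 times, the smallest such spread among the 7 tested members. The log2 change was 3.91 ± 0.46 (adjusted p = 1.3e-04 by edgeR). Of the 50-base words of Cxcl16, 16.9% also occur in Zmynd15, so reads could be shared between them, and Zmynd15 had 2, 38 and 43 counts at 72 h.

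Cxcr6, the receptor of Cxcl16, had 5, 0 and 0 counts at 0 h and 19, 12 and 6 counts at 72 h, too few for the test, with a pooled ratio of 10.5 and a 95% counting interval of 4.11 to 34.1. All its 0 h reads lay in replicate 1, without which the bound was 11.9-fold, and the ratio was 6.79 without 0 h replicate 3. Adam17 and Adam10 are proteases known to shed Cxcl16. Adam17 rose from 43.0 ± 0.709 to 63.1 ± 0.888 CPM (adjusted p = 0.0044), while Adam10 had 102 ± 3.17 CPM before and 126 ± 20.2 CPM after (adjusted p = 0.0756). Both were singled out for this role after their values were seen. Of the 9 chemokine processing and shedding genes, 5 of the 7 tested were called higher and none lower by edgeR. The shares over all tested genes were 21.0% and 17.5%, and the list had a median log2 change of 2.33. Mmp14, a membrane metalloproteinase that can cleave Cxcl12, rose from 13.998 ± 4.58 to 293 ± 46.6 CPM (adjusted p = 5.3e-06). Mmp2, a secreted gelatinase that cleaves Cxcl12 as well, had a log2 change of 2.14 ± 0.21 (adjusted p = 3.7e-05).

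Cxcl12 (ENSMUSG00000061353), a homeostatic chemokine made mostly by stromal cells, rose at 72 h. It had 6, 23 and 20 counts at 0 h and 75, 72 and 28 counts at 72 h, or 0.519, 1.95 and 1.58 CPM against 8.68, 8.32 and 3.42 CPM. The groups did not overlap, but 72 h replicate 3 lay closer to the highest 0 h library than to the other 72 h libraries. The log2 change was 2.32 ± 0.61 (95% interval 0.97 to 3.68; adjusted p = 0.013 by edgeR). The call held without each library in turn, with adjusted p between 0.0013 and 0.046. Of the fibroblast and corneal stroma markers, Dcn, Lum and Col3a1 were higher, Pdgfra was lower, and Kera and Dpt were not tested. Pdgfra differed from the others at 0 h already, at 227 CPM against 0.947, 0.0263 and 1.27 CPM for Dcn, Lum and Col3a1. Which cells carried these reads was not tested.

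The 2 receptors of Cxcl12 took different courses. Ackr3 (ENSMUSG00000044337) was read at 11.8, 11.6 and 9.78 CPM at 0 h and at 11.2, 13.2 and 6.97 CPM at 72 h, so the groups overlapped and both the highest and the lowest library were 72 h libraries. Its log2 change was -0.08 ± 0.30 with a 95% interval of -0.76 to 0.60 (adjusted p = 0.859 by edgeR). Cxcr4, the signalling receptor, had 0, 2 and 2 counts at 0 h and 13, 28 and 50 counts at 72 h. Its log2 change was 4.89 ± 0.99 (adjusted p = 0.0034). The pooled ratio of 32.2 (95% counting interval 12.2 to 121) was 21.4 with 72 h replicate 3 left out. Cxcr4 is carried by most leukocytes, and macrophage and neutrophil markers were higher in the same libraries. Among the 72 h libraries Cxcr4 was lowest in replicate 1 and highest in replicate 3. Summed macrophage markers (241, 355 and 148 CPM in replicates 1, 2 and 3) and neutrophil markers (44.5, 20.7 and 29.8 CPM) stood in other orders. The low sum of T and NK cell markers (0, 0.809 and 4.40 CPM) stood in the same order as Cxcr4. So did the sum of the 4 surface epithelium keratin markers (4.75, 72.9 and 3479 CPM). Which cells carried the Cxcr4 reads was not tested.

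To compare genes, levels were divided by the length of all annotated exons. It was 3348 bases for Ackr3, 1808 for Cxcr4 and 8176 for Cxcl12. Which transcripts were expressed was not examined, so comparisons between genes are approximate. Ackr3 stood at 3.31 ± 0.337 CPM per kb at 0 h and 3.12 ± 0.947 at 72 h, and Cxcr4 at 0.0603 and 2.00. The Ackr3 level exceeded that of Cxcr4 in 5 of 6 libraries, by 3.54, 3.37 and 2.83 CPM per kb at 0 h and 2.52 and 2.14 in 72 h replicates 1 and 2. In 72 h replicate 3 it was lower by 1.30 CPM per kb (difference -1.30). The ratio of Ackr3 to its ligand Cxcl12 was 55.8, 14.5 and 15.1 at 0 h and 3.16, 3.87 and 4.97 at 72 h. The groups did not overlap in either quantity, which restates the rises of Cxcl12 and Cxcr4 beside an Ackr3 level that was not called, and is a description.

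Other atypical chemokine receptors were scarce. Ackr4, a scavenger of CC chemokines, had 5, 13 and 27 counts at 0 h and 13, 11 and 7 at 72 h and did not pass edgeR's test (log2 change -0.02 ± 0.78, adjusted p = 0.991; its sign changed under some alternatives). Ackr1, the Duffy antigen receptor, had 7, 2 and 2 counts and then 0, 0 and 3, and Ackr2 had 1 count in all. Ccrl2, which binds the chemoattractant chemerin, had 0, 1 and 0 counts at 0 h and 4, 10 and 6 at 72 h, a pooled ratio of 28.3 (95% counting interval 4.53 to 1173), and was too low for the test; with 0 h replicate 2 left out the bound was 6.34-fold, and the ratio was 18.4 without 0 h replicate 3. Cxcr5 had 0 counts at 0 h and 0, 3 and 3 at 72 h, and Cxcl13, its ligand, had none at all.

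Cxcl14 (ENSMUSG00000021508) was by far the highest of these ligands at 0 h. This chemokine is made constitutively by many epithelia. Its reads numbered 807, 562 and 947 at 0 h and 638, 945 and 371 at 72 h, which gave 69.8, 47.6 and 74.7 CPM against 73.9, 109 and 45.4 CPM. The 72 h group held both the highest and the lowest library and so spanned the whole 0 h range. The log2 change was 0.25 ± 0.33 (95% interval -0.53 to 1.03; adjusted p = 0.594 by edgeR), moving to -0.10 when 72 h replicate 2 was left out and to 0.53 when 72 h replicate 3 was.

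**Figure D4:**
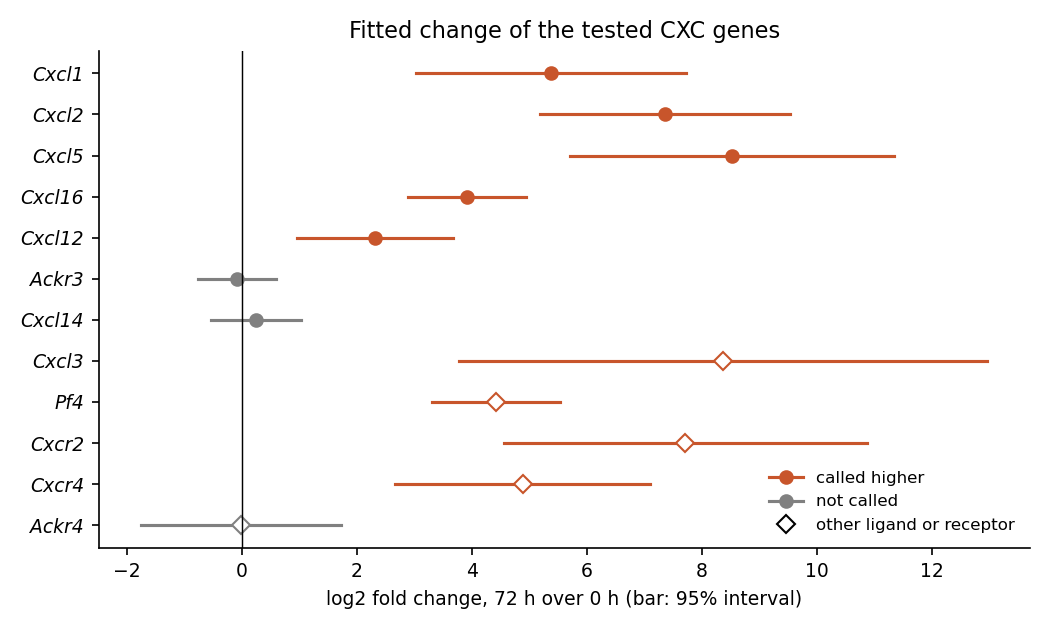
Fitted log2 change from 0 h to 72 h for the 7 tested members (filled circles) and 5 other tested CXC ligands and receptors (open diamonds), with 95% intervals as bars; orange marks genes called higher and grey those not called. The intervals of Cxcl14, Ackr3 and Ackr4 include 0, and that of Cxcl3 is the widest of the 12.

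In order of level per kilobase at 0 h, Cxcl14 came first at 35.0 ± 7.91 CPM per kb, then Ackr3 at 3.31 ± 0.337, Cxcl16 at 0.391 ± 0.215 and Cxcl12 at 0.165 ± 0.0907. The ranges of Cxcl16 and Cxcl12 overlapped, as did those of each later neighbour down to Cxcl9 and Cxcl5, which were at 0. At 72 h Cxcl14 was again first at 41.7 ± 17.5, followed by Cxcl16 at 5.96 ± 1.18, whose range overlapped that of Cxcl2. Cxcl2 (3.16 ± 1.83), Ackr3 (3.12 ± 0.947), Cxcl1 (2.75 ± 1.27) and Cxcl5 (2.40 ± 1.27) followed. Each of these 5 genes from Cxcl16 to Cxcl5 overlapped its neighbour in range, so their order is not resolved. Cxcl12 at 0.833 ± 0.359 stayed below Cxcl5, and Cxcl10 and Cxcl9 came last at 0.1248 and 0.0270.

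The makeup of the CXC ligand RNA was compared on the same per-kilobase scale. Over 15 ligand genes, the summed level per kilobase went from 40.0, 27.7 and 42.9 CPM per kb at 0 h to 111, 95.6 and 68.8 at 72 h. Cxcl14 held 94.9% ± 0.811 of it before and 44.9% ± 15.2 after (SD, n = 3), a description that restates the rises of the other ligands. By library the 72 h shares of Cxcl14 were 36.3%, 62.5% and 36.1%. Pf4 held 2.97% ± 0.386 at 0 h and 25.2% ± 7.51 at 72 h, more than Cxcl16 at 1.15% ± 0.782 and 6.61% ± 1.28. Cxcl1, Cxcl2 and Cxcl5 held 3.31%, 3.40% and 2.61% at 72 h on average. Without correction for length the Cxcl14 share was 94.3% and 49.0%.

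**Figure D5:**
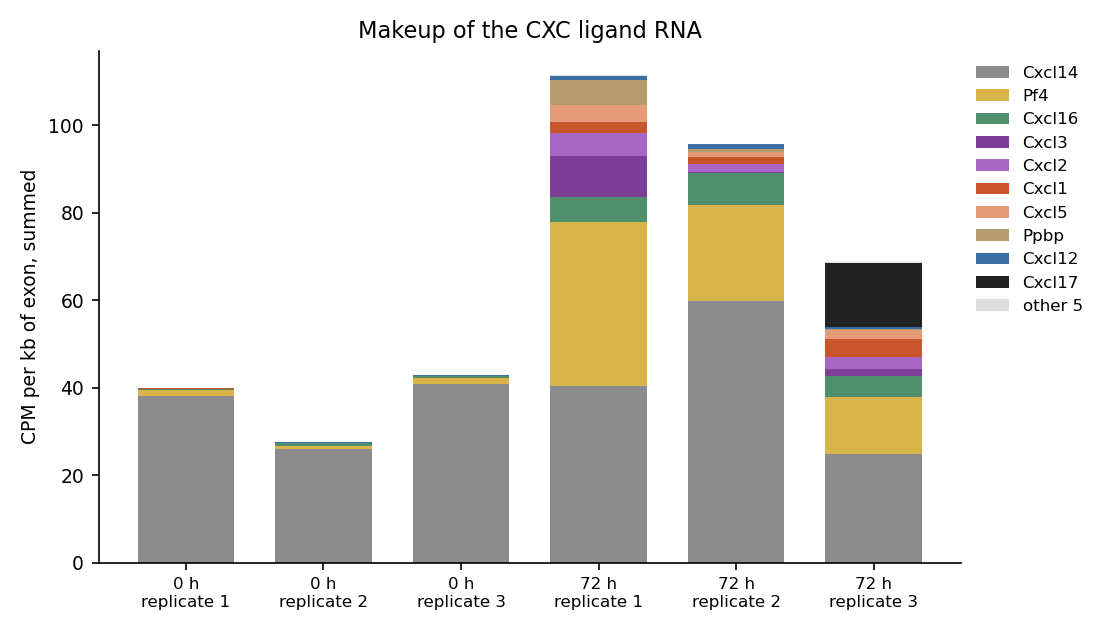
Summed CPM per kb of exon of 15 CXC ligand genes in each library, stacked by gene. Cxcl14 makes up nearly all of the 0 h bars, while Pf4, Cxcl16 and the Cxcr2 ligands are added at 72 h, and the black Cxcl17 segment is present in 72 h replicate 3 alone.

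Genes around the chemokines were also read from lists chosen by function, with earlier results of these data known. The background for each list is all tested genes, of which 21.0% were called higher and 17.5% lower. Of 17 receptors and transducers of cytokine signals that induce CXC genes, 14 were called higher and 2 lower, with a median log2 change of 1.45. Osmr, the oncostatin M receptor, rose from 12.2 ± 1.19 to 51.6 ± 5.22 CPM (log2 change 2.08 ± 0.17, adjusted p = 1.1e-05), and Irak1, a kinase of the IL-1 receptor pathway, fell from 107 ± 1.80 to 74.9 ± 9.62 CPM (adjusted p = 0.0070). Traf6, the ubiquitin ligase downstream of it, was the other gene that fell. In the same libraries 8 of 11 macrophage markers were higher, and their part in these lists was not tested.

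Among 22 genes of chemokine receptor signalling, 14 were called higher, 3 lower and 5 not called, with a median of 0.59. Dock2, a Rac activator of migrating leukocytes, rose from 0.617 ± 0.236 to 27.3 ± 9.32 CPM (log2 change 5.45 ± 0.41, adjusted p = 7.4e-06). Arrb1, beta-arrestin 1, which takes receptors such as Ackr3 into the cell, fell from 131 ± 7.62 to 48.5 ± 3.33 CPM (log2 change -1.44 ± 0.11, adjusted p = 8.6e-06). Arrb2, the other beta-arrestin, which is outside the naming rule, rose from 9.59 ± 0.583 to 26.4 ± 2.86 CPM (adjusted p = 3.8e-04). Of 6 genes that act on chemokine mRNA stability, 4 were called higher and none lower by edgeR, with a median of 1.20. Zfp36l1 and Zfp36, which encode proteins that bind AU-rich elements and promote mRNA decay, had log2 changes of 2.59 ± 0.18 and 1.94 ± 0.22 (adjusted p = 5.3e-06 and 1.0e-04).

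For 5 members the tested genes with the closest pattern were named, by the mean absolute difference of log2(CPM + 0.5) over the 6 libraries, each gene centred at its own 0 h mean. Closest to Cxcl1 were Mirt1 (0.12), Cyp4f18 (0.17) and Dusp10 (0.18), and closest to Cxcl5 were Cd37 (0.15), Tnnt2 (0.16) and Tarm1 (0.16). Cxcl12 lay nearest to Tnfrsf26 (0.16), Cdc20 (0.16) and Atad2 (0.17), and Cxcl16 to Tnfrsf12a (0.14), Csmd1 (0.17) and Selplg (0.19). Ackr3 lay nearest to Mphosph9 (0.058), Chid1 (0.060) and Psmd11 (0.074), none of which was called. The measure ranges over 2 groups that many genes separate, so it describes likeness of size and spread in these libraries only.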

How the data were processed

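RNA from 6 pools of 5 lens capsules (3 at 0 h, 3 at 72 h) was purified on Qiagen RNeasy columns and sequenced from Takara SMARTer Stranded Pico libraries, per the labels' protocols. The authors deposited whole-number counts of reads for each Ensembl gene, not normalized. The submitters' processing notes list HISAT2, HTSeq and edgeR, and GRCm39 as build; no version, gene annotation or strand option is stated there, and counts of overlapping and antisense genes are uncertain. The 5 lines that name no gene held 41.9% to 45.2% of reads at 0 h and 48.0% to 51.7% at 72 h and were left out. Symbols came from GENCODE M21 and matched 51947 of 56940 identifiers; of 190 list genes 1, Lim2, was not matched by symbol.

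Genes were filtered with filterByExpr (minimum count 10, minimum total 15), scaled by TMM and tested with edgeR's robust quasi-likelihood test (edgeR 4.0.16, R 4.3.3), as a two-sided test adjusted by Benjamini and Hochberg's method across 15407 genes; the model held time only. Fitted changes use a prior count of 0.125. Their standard errors come from the change and the F statistic. The fit was tested on simulated data, in which the changed genes had reads in both groups. It therefore does not cover genes with 0 counts at 0 h, such as Cxcl5. Where a pooled group has 0 counts, it was set to 3 counts and the fold is a lower bound that takes the other group's count as exact. Other pooled ratios have exact 95% intervals. Both treat reads as independent, which PCR copies are not, so they can be too narrow. They cover counting error only, not the spread between pools. P-values measure the spread between pools, and nothing says which mice went into which pool. Exon lengths were taken from GENCODE M21 as the union of exons. Exact permutation tests of 6 derived quantities, sums, shares and ratios of these genes, cannot go below 0.1 with 3 libraries a group and support nothing here. Alternatives were RLE, upper quartile and no scaling, no filter and a stricter one (30 counts, 1 CPM in 3 libraries), DESeq2 1.42.0, limma voom (limma 3.58.1), a replicate block and leaving out each library. The naming rule took every CXC ligand, CXC receptor and atypical receptor, and from each other list the called member with the smallest p in each direction, or 2 where only 1 direction was called. Promoter motifs were searched as fixed letters, after longer forms of the NF-kappaB and interferon type motifs that are not reported. Members and lists were chosen with earlier results of these data known.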

Additional observations from a re-analysis of the deposited data

How the results depend on the processing

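The 5 called genes Cxcl1, Cxcl2, Cxcl5, Cxcl12 and Cxcl16 kept their direction and call under every alternative in which they were tested; the stricter filter removed Cxcl5 and left 4. Leaving out 1 library gave log2 changes of 4.80 to 8.68 for Cxcl1, 6.80 to 9.03 for Cxcl2, 8.07 to 8.86 for Cxcl5, 1.93 to 2.67 for Cxcl12 and 3.51 to 4.18 for Cxcl16. With 0 counts at 0 h a fitted change depends on the prior count and is not a measured fold. This holds for Cxcl5 throughout and for Cxcl1 and Cxcl2 without 0 h replicate 1. Cxcl14 ranged from -0.10 (without 72 h replicate 2) to 0.53 and Ackr3 from -0.28 to 0.15 (without 72 h replicate 3), uncalled throughout. Over all genes, 2511 to 3646 were higher and 1877 to 3265 lower without 1 library.

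The replicate numbers are not stated to pair the mice, and deviations of same-numbered libraries correlated at -0.042, 0.068 and -0.010 across genes. With a replicate block 5 members were called higher as before (log2 change 2.33 for Cxcl12, adjusted p = 0.026). Genes near 0 change reversed sign: Ackr4 with limma voom (0.21), the replicate block (0.19) and, without 1 library, between -0.43 and 0.65; Mphosph9 with upper quartile scaling (-0.045), limma voom (-0.0074), the replicate block (-0.017) and, without 1 library, between -0.14 and 0.30; Chid1 (-0.44 to 0.028) and Psmd11 (-0.21 to 0.20) without 1 library. The cause was not tested. With 0 to 5 reads per library, Cxcl9 and Cxcl10 are limited by depth.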

Other observations

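Cxcl17, a chemokine of mucosal epithelia, had 0 counts in 5 libraries and 91 counts (11.1 CPM) in 72 h replicate 3. In that library the 4 surface epithelium keratin markers summed to 3479 CPM, against 4.75 and 72.9 CPM in the other 72 h libraries. Art3, the gene between Cxcl9 and Cxcl10, likewise had 0 counts in 5 libraries and 43 counts in 72 h replicate 3. In the same library Cxcl14 was at 45.4 CPM, Ackr3 at 6.97 CPM and Cxcl12 at 3.42 CPM, each the lowest of the 3 libraries at 72 h.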
